A study of Homo sapiens with 4 samples.

Results

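The zinc finger genes of chromosome 19 were examined in nascent RNA of human HEK293 cells. Members were the protein-coding genes listed on chromosome 19 whose GENCODE symbol was ZNF followed by a number and at most 1 letter. The rule took 246 of the 60708 genes in the table and used no measured value. TT-seq, which labels newly made RNA with 4-thiouridine, here for 20 min, had been run on 4 libraries. All of them came from embryonic kidney HEK293 cells in which the endogenous RPB1, the largest subunit of RNA polymerase II, carried a degron that auxin acts on. In the WT group (2 libraries) the cells had received a plasmid for RPB1 with the 52× wild-type C-terminal domain (CTD), and in the T4A group (2 libraries) a plasmid for RPB1 with the T4A change, threonine to alanine at the fourth residue, in each of the 52 CTD repeats. Auxin was given to both groups 48 h after transfection and kept for another 48 h, so both groups lacked the wild-type endogenous protein to the extent that auxin removed it. Transfection was transient, so the measured cells could include some that took up no plasmid. The labels do not state that the libraries of a group came from separate cultures, and p-values measure only the spread between these libraries, which may be technical.

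Most ZNF genes of this chromosome encode C2H2 zinc finger proteins, in which an array of fingers reads a DNA sequence and an N-terminal KRAB domain recruits TRIM28 (KAP1). TRIM28 in turn brings the histone methyltransferase SETDB1 and HP1 proteins, which silence transposable elements in particular. The genes arose by repeated local duplication, so that neighbours are often close copies of each other, and many stand in long arrays along the chromosome. The genes themselves carry an unusual chromatin with the repressive H3K9me3 mark over their finger exons.

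The letters CCGGAAG, the core recognised by ETS-type factors, were present on either strand in 98 of the 216 members' promoter windows, or 45.4%. A window ran from 250 bases before to 50 bases after the RefSeq start on GRCh38.p14, and 30 members had no entry. The share was 10.7% over all 27305 windows of this length, 14.4% over those of 15274 protein-coding genes and 34.3% over those of 213 ZNF genes of other chromosomes. TATAAA stood in 1.85% of the members' windows against 12% of all, and CACGTG in 4.17% against 7.43%. In windows of protein-coding genes the 2 shares were 9.57% and 8.88%. In those of ZNF genes of other chromosomes they were 4.23% and 6.1%. TATAAA and CACGTG were searched on either strand as well. The letters in capitals below are CCGGAAG or its reverse complement, with 11 bases on each side, written 5′ to 3′ along the gene's strand. First come the 3 members with the highest level per kb among those that hold the letters, on the plus strand at chr19:57279907-57279935, the minus strand at chr19:57947838-57947866 and the plus strand at chr19:57614214-57614242, which share little outside the capitals.
ZNF460: tattacatcacCCGGAAGtccctgcatcc
ZNF256: tttggcctttaCTTCCGGaaggaggtgga
ZNF134: tctgggcgggaCTTCCGGtatcttcctcg

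Next come the members from ZNF43 to ZNF730 along the array that have a promoter window, all of which hold the letters. They are shown because their levels, given further on, differ widely around a shared motif. The 5 other members of this stretch of the array (ZNF676, ZNF729, ZNF98, ZNF99 and ZNF728) had no window entry. ZNF43 (chr19:21836189-21836217) and ZNF208 (chr19:22010945-22010973) are on the minus strand. ZNF257 (chr19:22052455-22052483), ZNF492 (chr19:22634295-22634323), ZNF723 (chr19:22832260-22832288) and ZNF730 (chr19:23116996-23117024) are on the plus strand.
ZNF43: ggacagggcggCTTCCGGgatgtggcggg
ZNF208: ggacaggtcggCTTCCGGgatgtggtcgg
ZNF257: ggacagggtggCTTCCGGgtttggcgggt
ZNF492: ggaaagggcggCTTCCGGgatgtggcggg
ZNF723: ggacagggcggCTTCCGGgatttggcgcg
ZNF730: agacagggcggCTTCCGGgatttggcgcg

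Compared base by base with ZNF43 and without gaps, the stretch of ZNF492 differed at 1 of 29 positions, that of ZNF723 at 2, those of ZNF208 and ZNF730 at 3 each and that of ZNF257 at 7. The longer run GGCTTCCGGG, chosen after these stretches had been seen and searched on both strands, was found in 20 of 29 windows (69.0%) of the array that holds these genes. The windows shown from ZNF43 to ZNF730 hold it by this choice and are counted among the 20. The run was found in 3 of the 187 windows (1.6%) of all other members and in 0.469% of all windows. It contains CCGGAAG on the reverse strand, so the 2 counts overlap. A match describes these letters only and is no measurement of factor binding.

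The libraries held 33188536 to 45605027 counts each, and T4A replicate 1 stood apart, with a correlation of log2 CPM (counts relative to the TMM-scaled library size) of 0.974 to 0.979 with the others against 0.988 to 0.991 among the rest. The gene of RPB1, POLR2A, which the plasmids also express, gave 9640 and 8720 CPM in WT replicates 1 and 2 and 7492 and 8083 CPM in T4A replicates 1 and 2. Its log2 fold change was -0.24 ± 0.25 (SE, n = 2 and 2) with an adjusted p of 0.659 by edgeR. Plasmid and endogenous RNA cannot be told apart there, nor can the counts tell whether T4A is present. Of the HEK293 markers, CDH2 (271 to 333 CPM) and VIM (41.6 to 48.5 CPM) were present, PAX2 and SOX11 lay between 1.81 and 6.31 CPM, and NEFM was at 0.136 CPM or less. ALB was at most 1.10 CPM, CD3E, HBB, MYH7 and PTPRC were each at most 0.834 CPM, and INS was at 0, and PECAM1 was not analysed here, so the markers measured for other cell types were at or near 0.

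The members held 0.889% and 0.906% of the counts of WT replicates 1 and 2 and 0.944% and 0.947% of those of T4A replicates 1 and 2. Of the 246 members, 199 passed the filter on low counts and were tested among 23321 genes, and the other 47 were not. Another gene of the same strand covered at least 90% of the span in 37 of these 47 members. The other 10 were ZNF556, ZNF208, ZNF257, ZNF676, ZNF729, ZNF99, ZNF723, ZNF728, ZNF575 and ZNF132, which held few reads without such cover.

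No count at all was listed for 30 members (12.2%), and every one of these 30 lay at least 99.5% inside other listed genes of its own strand. All 16 members covered over their whole span were at 0, against none of the 140 members free of same-strand overlap, whose median was 1074 counts per library. Between these extremes, 63 members with partial cover under 90% had a median of 1234 counts, and 14 of 27 members with 90% to under 100% were at 0. By contrast, 17 members with at least 90% cover by a gene of the opposite strand alone held 20.0 to 5014 counts, and none was at 0. The program used for counting, featureCounts, by default leaves a read that falls on several genes unassigned, and the settings used here are not given in the sources used here. A listed 0 is therefore no measurement of transcription for these genes. Among the 262 ZNF genes of other chromosomes, 16 (6.11%) were at 0 and 22 (8.4%) were covered to at least 90%, against 43 (17.5%) of the chromosome 19 members.

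Some of the genes that covered these 43 members are named as joined loci, as ZNF559-ZNF177, ZNF625-ZNF20 and ZNF816-ZNF321P, and others are ordinary genes such as ZNF432 and ZNF28. A single protein-coding gene covered at least 90% in 33 cases and a lncRNA in 8. The locus ZNF559-ZNF177 held 320, 367, 202 and 199 counts, whereas ZNF177 was at 0 in all libraries and ZNF559 had 15, 11, 28 and 17 counts in the order WT replicates 1 and 2, T4A replicates 1 and 2. ZNF8, whose product is known to act with SMAD proteins, was at 0 throughout, and ZNF544 had 0, 1, 0 and 1 counts, the first wholly and the second to 99.3% inside another gene. ZNF580 and ZNF581 overlap each other, and only ZNF580 had counts (61, 62, 40 and 82).

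**Figure D1:**
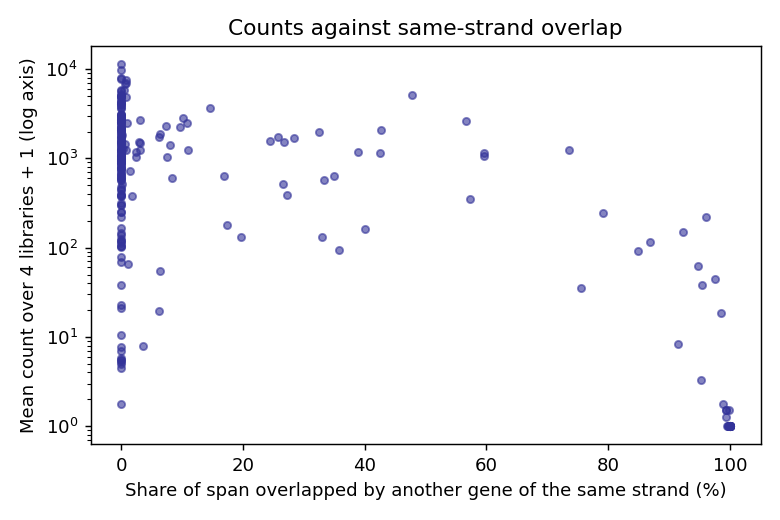
Mean count over 4 libraries plus 1 (log axis) against the share of each member's span that another gene of the same strand overlaps (%), with 1 point for each of 246 members. The 30 members at 0 all lie at the right edge, at 99.5% or more.

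Levels were compared as CPM per kb of listed span, which includes introns. The median of the 199 tested members was 1.23 CPM per kb, and that of the 132 tested members without same-strand overlap 1.49. The median was 0.630 over 15329 tested protein-coding genes and 1.14 over 231 tested ZNF genes of other chromosomes. The middle 80% of tested members lay between 0.151 and 3.36 CPM per kb, against 0.0219 to 3.54 for tested protein-coding genes. Tested ZNF genes of other chromosomes spanned 0.101 to 3.34, so the scarcity of very low values was not particular to chromosome 19. The filter on low counts had removed 47 members beforehand. In these bulk libraries, fewer cells that transcribe a gene and less RNA per cell cannot be told apart.

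ZNF121 had the highest level, at 11.7 and 12.6 CPM per kb in WT and 13.3 and 12.4 in T4A replicates 1 and 2. ZNF460 followed with 7.54 and 7.30 in WT and 8.09 and 8.26 in T4A. ZNF256 gave 6.80 and 6.98 in WT and 7.75 and 7.68 in T4A. The top place of ZNF121 was clear of all others, while the highest ZNF256 value exceeded the lowest ZNF460 value, so that these genes overlapped in range. ZNF134 (6.51 to 7.35 CPM per kb) and ZNF317 (5.65 to 6.72 CPM per kb) came next, and their ranges overlapped as well. By counts alone, the order was ZNF121 (mean 11410 per library), ZNF91 (9808), ZNF675 (7857), ZNF100 (7679) and ZNF714 (7592), of which the latter 4 all belong to 1 array.

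That array, ZNF101 to ZNF254 at chr19:19668796-24129968, also held the lowest run among members without covering genes. Between ZNF43 and ZNF730 lie 9 members over chr19:21932958-23003176, and 8 of them, ZNF208, ZNF257, ZNF676, ZNF729, ZNF98, ZNF99, ZNF723 and ZNF728, held 0 to 24 counts in any library. Their mean levels were 0.000651 to 0.00456 CPM per kb, and their counts summed to 42 and 34 in WT and 70 and 45 in T4A over 412599 bases of span. ZNF492 lies within this run and held 2008 and 2582 counts in WT and 2063 and 2013 in T4A, or 1.72 CPM per kb. On the flanks, ZNF43 gave 2.65 CPM per kb, ZNF100 4.54, ZNF730 0.435 and ZNF91 2.86. ZNF492 was thus high among low neighbours in all 4 libraries, while the 3 low members with a promoter window (ZNF208, ZNF257 and ZNF723) hold the CCGGAAG letters as ZNF43 and ZNF492 do. The other 5 low members had no window to compare. Same-strand cover of the 8 low members was at most 6.31%. How reads that align to several places were treated is not given in the sources used here, so levels of near-identical copies are uncertain. The run was picked after its values had been seen.

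**Figure D2:**
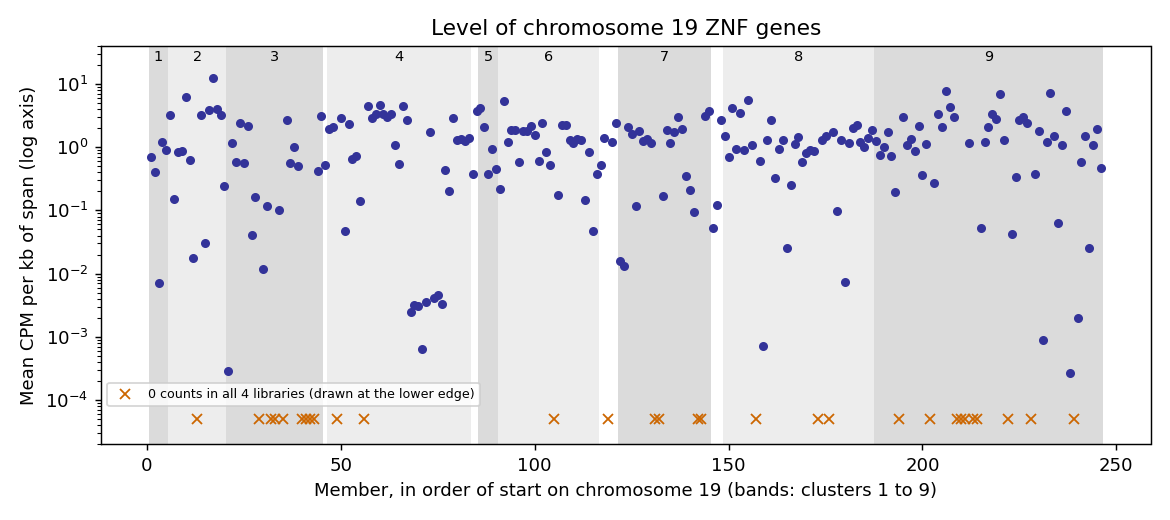
Mean level of each member over 4 libraries (CPM per kb of span, log axis) in order of start along chromosome 19, with grey bands for the 9 clusters and crosses for the 30 members at 0. The group of points between 0.000651 and 0.00456 in band 4 is the low run from ZNF208 to ZNF728, and the highest point, in band 2, is ZNF121.

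The T4A and WT libraries were then compared to ask whether transcription of the members depends on the fourth CTD residue. By edgeR, 0 of 199 tested members passed an adjusted p below 0.05, where 0.00429% of all 23321 genes (1 gene) did. The smallest adjusted p among members was 0.193. The unadjusted p was below 0.05 for 13 members with more RNA in T4A (6.53%) and for 11 with less (5.53%), against 7.45% and 8.02% of all genes. Both T4A libraries lay above both WT libraries for 54 members (27.1%) and below for 50 (25.1%), against 24.8% and 24.7% of all genes. The members' shares were thus near those of all genes, noncoding genes included. Among the 15329 tested protein-coding genes the shares were 21.3% above and 29.2% below. By unadjusted edgeR p below 0.05 they were 6.58% higher and 10.5% lower. Against protein-coding genes, more members lay above and fewer below. Without TMM factors the unadjusted counts were 25 higher and 5 lower, but the share over all genes was not computed for that setting. The members' median then lay 0.01 above that of all genes, as with TMM. Without the filter on low counts, or with the replicate number as a block, 0 members passed as well, against 0.382% and 2.29% of all genes.

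The median log2 fold change of the members was 0.01, which lies 0.01 above that of all genes tested, and 104 were above and 95 below 0. The middle 50% spanned 0.25 on the log2 scale, against 0.46 for all tested genes and 0.36 for protein-coding genes. Relative to the WT mean and centred on all genes, the members' median was -0.03 and 0.03 in WT replicates 1 and 2 and 0.04 and -0.00386 in T4A replicates 1 and 2, so the T4A libraries lay within or next to the WT range. For ZNF genes of other chromosomes the median lay 0.09 below that of all genes, with 30 of 231 (13.0%) above and 92 (39.8%) below both WT libraries. For the other protein-coding genes of chromosome 19 it lay 0.06 below. Their library medians were 0.08 and -0.09 in WT and -0.21 and 0.08 in T4A replicates 1 and 2. The T4A libraries thus lay on opposite sides of 0.

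**Figure D3:**
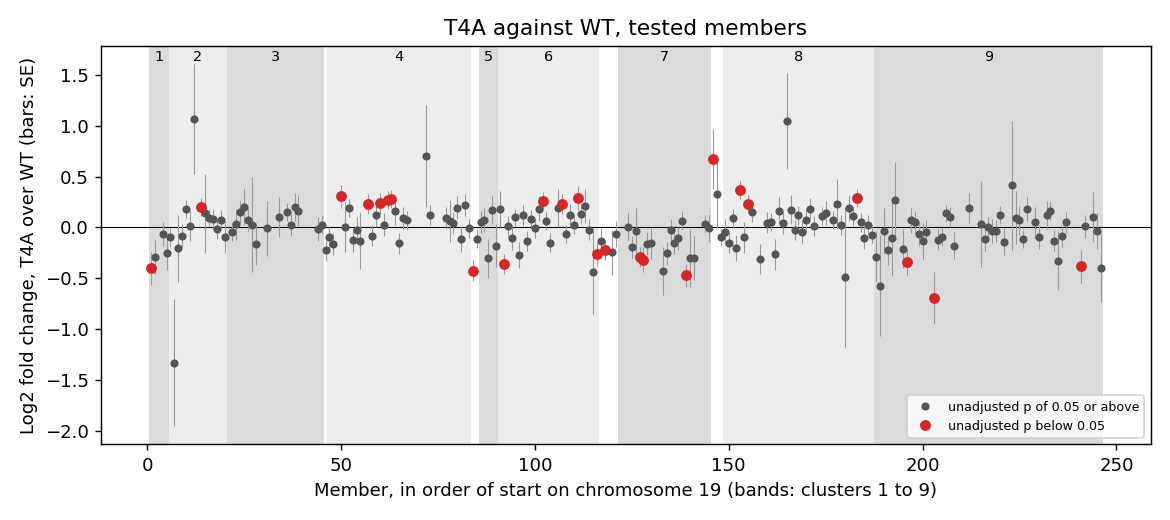
Log2 fold change of T4A over WT with its SE for the 199 tested members in order of start along chromosome 19, with grey bands for the 9 clusters. Red points, 13 above and 11 below 0, have an unadjusted p below 0.05, and none passes after adjustment.

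DESeq2, run as an alternative, called 5 of the 162 members to which it gave an adjusted p (3.09%), against 7.87% of all genes with one, and left 37 members without a value. ZNF536, a repressor of neuronal differentiation and a long gene of its own outside the arrays, gave 220 and 200 CPM in WT and 166 and 147 CPM in T4A. Both T4A values lay below both WT values, with a log2 fold change of -0.43 ± 0.10 (SE) and an adjusted p of 0.193 by edgeR and 0.00146 by DESeq2. ZNF146, which encodes a protein made almost entirely of fingers, gave 137 and 157 CPM in WT and 118 and 110 CPM in T4A. Its log2 fold change was -0.36 ± 0.10 (SE), with an adjusted p of 0.218 by edgeR and 0.0159 by DESeq2. A gene of the opposite strand covers its whole span.

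ZNF235 gave 32.8 and 30.4 CPM in WT and 21.7 and 23.8 CPM in T4A, a log2 fold change of -0.47 ± 0.12 (SE) with an adjusted p of 0.202 by edgeR and 0.0205 by DESeq2. Of the 2 members that DESeq2 called higher, ZNF350, known as ZBRK1, a KRAB repressor that binds BRCA1, gave 67.8 and 69.3 CPM in WT and 92.3 and 85.1 CPM in T4A. Its log2 fold change was 0.37 ± 0.09 (SE), with an adjusted p of 0.193 by edgeR and 0.00669 by DESeq2. ZNF738 gave 86.3 and 92.3 CPM in WT and 110 and 106 CPM in T4A, with an adjusted p of 0.243 by edgeR and 0.0444 by DESeq2. Over all alternative fits, those without single libraries included, the adjusted p ran from 0.00146 to 0.585 for ZNF536, 0.0159 to 0.585 for ZNF146, 0.00317 to 0.602 for ZNF235, 0.00669 to 0.585 for ZNF350 and 0.0444 to 0.708 for ZNF738. Without T4A replicate 2, edgeR called 15 of 204 members (7.35%, 2 higher and 13 lower) against 13.8% of all genes. Without T4A replicate 1 it called 1, ZNF536, against 1.36% of all genes.

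Members with at least 50 counts on average and both T4A libraries on 1 side of both WT libraries were ranked by log2 fold change. At the low end, ZNF835 came first, with 3.07 and 3.49 CPM in WT and 1.79 and 2.26 CPM in T4A, a log2 fold change of -0.70 ± 0.26 (SE) and an adjusted p of 0.272 by edgeR. It was followed by ZNF235, ZNF284 (-0.43 ± 0.24), ZNF536, ZNF554 (-0.40 ± 0.17) and ZNF837 (-0.38 ± 0.16). ZNF284 has 86.9% of its span under another gene of its strand, and only 82 to 163 counts were listed. At the high end, ZNF541, a gene known for its role in male meiosis, had 54 and 65 counts in WT and 87 and 68 in T4A, a log2 fold change of 0.67 ± 0.29 (SE). Its WT and T4A counts were few, and its adjusted p was 0.322 by edgeR. The others were ZNF350, ZNF253 (0.31 ± 0.11), ZNF570 (0.29 ± 0.12), ZNF525 (0.29 ± 0.09) and ZNF738 (0.28 ± 0.09). The edgeR adjusted p of these 12 members lay between 0.193 and 0.412. Single libraries moved 2 of them by over 1.5 times: ZNF554 was at -0.25 without T4A replicate 1, and ZNF253 at 0.19 without T4A replicate 1 and at 0.19 without WT replicate 1. Without T4A replicate 2, ZNF554 was at -0.58, ZNF253 at 0.40 and ZNF835 at -0.89. T4A replicate 1, which stood apart, is then the only T4A library, so no T4A spread is measured.

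**Figure D4:**
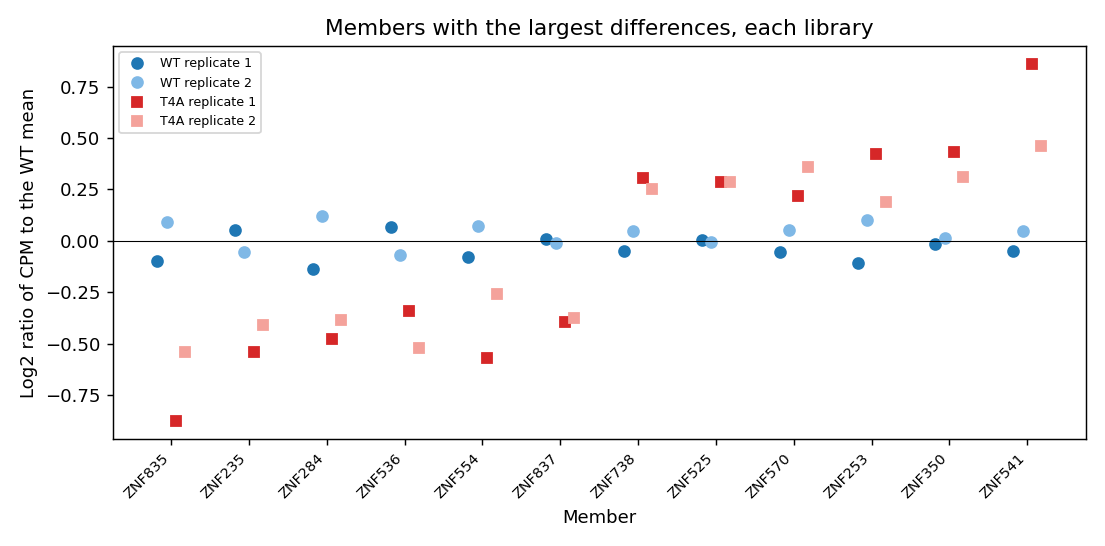
Log2 ratio of CPM to the WT mean in each of the 4 libraries for the 6 lowest and 6 highest members by log2 fold change. Circles are WT and squares T4A libraries; the T4A values lie on 1 side of both WT values in each member, as the selection required.

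The other members named for well-known roles had small differences, unlike ZNF536, ZNF146 and ZNF350 above. ZNF91, a primate-specific repressor of SVA elements, gave 236 and 275 CPM in WT and 272 and 254 CPM in T4A. ZNF93, which represses LINE-1 elements, gave 2.78 and 3.15 CPM in WT and 3.31 and 2.66 CPM in T4A, at most 139 counts. In both genes the groups overlapped. ZNF274, which recruits SETDB1 to the finger exons of other ZNF genes, gave 114 and 107 CPM in WT and 123 and 105 CPM in T4A, again with overlap. ZNF331, an imprinted gene, gave 116 and 119 CPM in WT and 114 and 110 CPM in T4A. ZNF473, known as ZFP100, takes part in histone pre-mRNA 3′ processing with the U7 snRNP and gave 78.3 and 77.4 CPM in WT and 71.9 and 73.5 CPM in T4A. In ZNF331 and ZNF473 the T4A values lay just below the WT values, with log2 fold changes of -0.07 ± 0.08 and -0.10 ± 0.08 (SE). For ZNF43, ZNF44 and ZNF507 the log2 fold changes were 0.08 ± 0.09, 0.02 ± 0.11 and -0.11 ± 0.09 (SE). The adjusted p of these members by edgeR was 0.575 or above, and the signs for ZNF44, ZNF91, ZNF93 and ZNF274 turned under some alternatives.

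By start position, runs of members with gaps of at most 1 Mb between starts and at least 5 members formed 9 clusters with 235 members, and 11 members were isolated. A cluster's shift is the median over its tested members less the median over every gene tested, on the log2 scale. The cluster from ZNF575 to ZNF296 (chr19:43525497-45076587, 18 of 24 members tested) had a shift of -0.16, with 15 members below 0 and 3 above. Its median relative to the WT mean was -0.01 and 0.01 in the WT libraries and -0.16 and -0.19 in T4A replicates 1 and 2. Both T4A libraries lay below both WT libraries in 11 of the 18 (61.1%). The share was 24.7% of all genes, 29.2% of protein-coding genes and 39.8% of ZNF genes of other chromosomes. The other 40 tested genes within these bounds had a shift of 0.03, with 22 above and 18 below 0.

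Within this cluster ZNF235 and ZNF284 were lowest, and other members lay in the same direction. ZNF45 gave 44.2 and 44.4 CPM in WT and 35.3 and 37.3 CPM in T4A, a log2 fold change of -0.29. ZNF221 gave 23.0 and 22.1 CPM in WT and 18.5 and 17.7 CPM in T4A, a log2 fold change of -0.32. ZNF224, a KRAB repressor, gave 31.1 and 31.6 CPM in WT and 25.02 and 27.6 CPM in T4A, a log2 fold change of -0.25. By contrast, ZNF227 (55.8 and 58.8 against 60.1 and 59.9 CPM) and ZNF180 (78.9 and 79.8 against 82.1 and 80.7 CPM) lay slightly above WT in T4A. These 5 genes were chosen after their values had been seen. No member of the cluster passed an adjusted p below 0.05 by edgeR. Unadjusted, p was below 0.05 for 0 higher and 3 lower members (16.7%), against 7.45% and 8.02% of all genes. Among ZNF genes of other chromosomes these shares were 4.33% and 12.6%.

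The cluster from ZNF554 to ZNF77 (chr19:2819868-2944971, 4 of 5 members tested) had the lowest shift, -0.27, at -0.36 and -0.19 in T4A replicates 1 and 2. Both T4A libraries lay below both WT libraries in all 4 tested members. This held for 24.7% of all genes, 29.2% of protein-coding genes and 39.8% of ZNF genes of other chromosomes. The 1 other tested gene within these bounds had a value of -0.56 on the same scale, lower than the members' median. ZNF555 gave 8.07 and 8.94 CPM in WT and 6.67 and 7.23 CPM in T4A, and ZNF57, the most transcribed of them, gave 21.6 and 21.3 CPM in WT and 20.9 and 20.2 CPM in T4A. ZNF554, ZNF555 and ZNF77 thus had the larger differences, and the 4 genes held at most 2421 counts together with ZNF556 in any library.

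On the other side, the cluster from ZNF175 to ZNF331 (chr19:51571283-53580269, 35 of 39 tested) had a shift of 0.05, with 24 above and 11 below 0. Its median was -0.02 and 0.02 in the WT libraries and 0.06 and 0.06 in both T4A libraries. Both T4A libraries lay above both WT libraries in 18 of the 35 (51.4%), ZNF350 and ZNF525 included. The share was 24.8% of all genes, 21.3% of protein-coding genes and 13.0% of ZNF genes of other chromosomes. The other 23 tested genes within these bounds had a shift of 0.05 as well, with 13 above and 10 below 0. The differences were small in size: ZNF614, the highest of this cluster per kb, gave 89.0 and 90.6 CPM in WT and 108 and 103 CPM in T4A, and ZNF160 gave 64.3 and 61.3 CPM in WT and 67.1 and 64.7 CPM in T4A. ZNF555, ZNF57, ZNF614 and ZNF160 were likewise chosen after their values had been seen.

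The array from ZNF101 to ZNF254 (28 of 37 tested) had a shift of 0.08, but the WT libraries alone spanned -0.09 to 0.09, and T4A replicates 1 and 2 stood at 0.14 and 0.01. A difference of this size lies within the spread between its replicates. The unadjusted p by edgeR was below 0.05 for 5 higher (17.9%) and 0 lower members, against 7.45% and 8.02% of all genes. None passed after adjustment. Both T4A libraries lay above both WT libraries in 9 (32.1%) and below in 3 (10.7%), against 24.8% and 24.7% of all genes. The shift was 0.05 for ZNF557 to ZNF846 (14 of 15 tested), 0.03 for ZNF653 to ZNF791 (15 of 25), 0.05 for ZNF302 to ZNF792 (5 of 5), 0.06 for ZNF565 to ZNF573 (25 of 26) and -0.04 for ZNF628 to ZNF446 (45 of 59). The isolated members had a shift of -0.12, with 2 above and 8 below 0. Under the 13 alternative fits, leaving out single libraries included, the shifts of ZNF575 to ZNF296 and ZNF554 to ZNF77 stayed below 0 in each, and each of the other 7 clusters changed sign in at least 1.

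**Figure D5:**
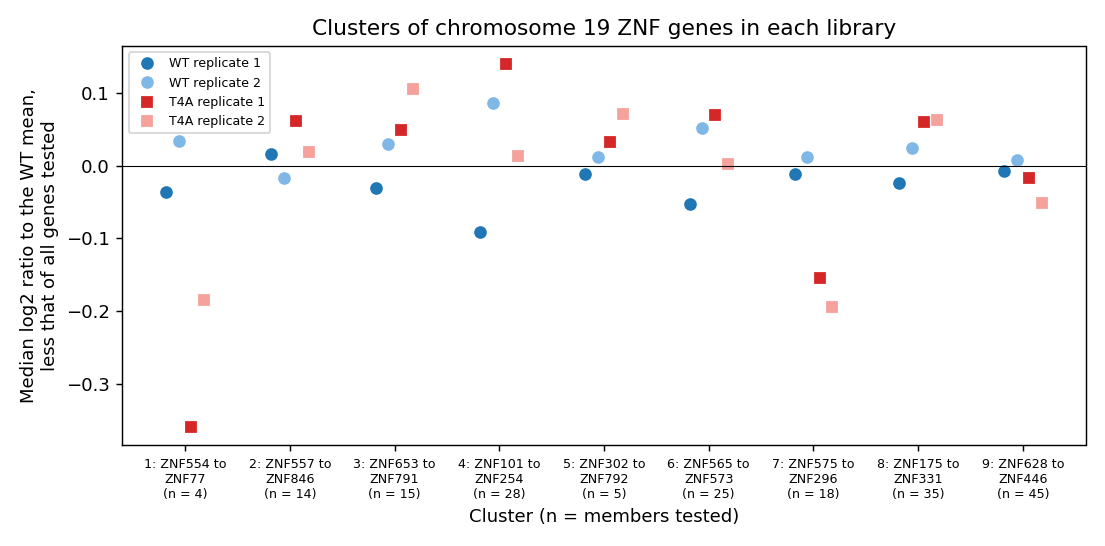
Median log2 ratio to the WT mean of the tested members of each of the 9 clusters in each library, less the median of all genes tested (circles WT, squares T4A). Both T4A squares lie below both WT circles in ZNF554 to ZNF77 and in ZNF575 to ZNF296, whereas T4A replicate 2 lies between the WT circles in ZNF101 to ZNF254.

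The members were also divided by the CCGGAAG letters shown at the start. Of 81 tested members with the letters, both T4A libraries lay above both WT libraries in 23 (28.4%) and below in 12 (14.8%). Of 96 tested members with a window but without the letters, 23 (24.0%) lay above and 34 (35.4%) below. Over all genes the shares were 24.8% above and 24.7% below, so that the shares above were near the background in both classes. The shares below were not: 14.8% lay under this background and 35.4% over it. Among protein-coding genes 21.3% lay above and 29.2% below, and among ZNF genes of other chromosomes 13.0% and 39.8%. The 35.4% thus lay between these 2 shares below, and the 14.8% under both. The medians lay 0.05 above and 0.03 below that of all genes, respectively. By library, the members with the letters had medians of -0.04 and 0.04 in WT and 0.05 and 0.02 in T4A, and those without had -0.03 and 0.03 in WT and -0.05 and -0.04 in T4A. The T4A medians thus lay within or next to the range of the WT libraries in both classes. In the array ZNF101 to ZNF254, 20 of 29 windows held the longer run that contains the letters. The letters themselves were in 98 of the 216 members' windows, so most members with the letters lie outside this array. The split was not repeated without the array, and neither letters nor array was tested as a cause. The windows of ZNF536, ZNF146, ZNF235 and ZNF350 held none of the 3 motifs searched, and ZNF738 had no entry.

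Of 31 genes listed for the KRAB silencing pathway, 30 were tested and 0 passed an adjusted p below 0.05 by edgeR, while the unadjusted p was below 0.05 for 1 on the higher (3.33%) and 2 on the lower side (6.67%), against 7.45% and 8.02% of all genes. Their median lay 0.09 below that of all genes, with 10 above and 20 below 0. TRIM28, the corepressor that KRAB domains bind, gave 84.5 and 75.7 CPM in WT and 63.1 and 84.7 CPM in T4A, so the groups overlapped. SETDB1, the H3K9 methyltransferase it recruits, gave 54.3 and 53.7 CPM in WT and 49.2 and 40.8 CPM in T4A, a log2 fold change of -0.26 ± 0.11 (SE) with an adjusted p of 0.312 by edgeR. EHMT1, an H3K9 methyltransferase, gave 252 and 227 CPM in WT and 166 and 202 CPM in T4A, a log2 fold change of -0.38 ± 0.12 (SE) with an adjusted p of 0.241. RLIM, a ubiquitin ligase, was the 1 gene counted on the higher side, and its part in KRAB silencing was not tested here. It gave 179 and 197 CPM in WT and 226 and 221 CPM in T4A, a log2 fold change of 0.25 ± 0.09 (SE) with an adjusted p of 0.281 by edgeR. The HP1 genes CBX1, CBX3 and CBX5 had log2 fold changes of 0.01, 0.14 and 0.05. KDM4A was at 0 and lies wholly inside another gene of its strand, and CHD4, with 35 to 56 counts, is covered to 83.9%.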

How the data were processed

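The authors deposited 1 table of raw read counts per gene made with featureCounts, over the listed span, for 4 TT-seq libraries from strand-specific (dUTP) preparations. The submitters' processing notes name GRCh38, cutadapt 4.6, STAR 2.7.11b, deepTools 3.5.6, FastQC and Picard. The counting settings and annotation release are not given in the sources used here. Among counts of 1 to 20, 84.3% were even over all genes and 73.4% (47 of 64) among members. A count is therefore not an independent molecule, and low counts are less precise than their number.

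Gene names and types came from GENCODE release 44 by stable identifier, without coordinates (58742 of 60708 matched). All 246 members overlapped their RefSeq GRCh38.p14 position. Promoter windows were those of RefSeq. The members, lists and tests were chosen with earlier results of these data known.

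T4A was tested against WT with edgeR 4.0.16 in R 4.3.3 (filterByExpr, TMM, quasi-likelihood test, Benjamini-Hochberg over all 23321 genes, call at adjusted p below 0.05), after tests on simulated data. SE is that of the log2 fold change. Per-library ratios used a pseudocount of 0.1 CPM. Clusters were split where the next start was over 1 Mb on. Named members were those called, the 6 highest and 6 lowest with at least 50 counts and groups that do not overlap, the 5 highest per kb and by counts, well-known members, and others where stated. Alternatives were DESeq2 1.42.0, other scalings, filters, thresholds, gene sets and centres, a length trend, the replicate number as a block, leaving out each library, and a gap of 0.5 Mb.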

Additional observations from a re-analysis of the deposited data

How the results depend on the processing

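Under edgeR with another scaling, filter, threshold, gene set, length trend or replicate block, 0 members were called. DESeq2 called 5, and leaving out single libraries gave 0 to 15. The replicate number did not pair the libraries (correlation of deviations 0.00498); with it as a block, 0 members and 533 of all genes (2.29%) were called, and the members' shift was 0.02. Without a filter 150 genes (0.382%) were called. The members' shift, 0.01, was -0.0623 without a filter, 0.0538 among protein-coding genes only, 0.0539 centred on protein-coding genes and -0.0480 to 0.0260 with single libraries left out.

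Without a filter, the shift was -0.0355 for ZNF557 to ZNF846, -0.0525 for ZNF653 to ZNF791, -0.0276 for ZNF302 to ZNF792, -0.0161 for ZNF565 to ZNF573, -0.24 for ZNF575 to ZNF296, -0.0284 for ZNF175 to ZNF331 and -0.12 for ZNF628 to ZNF446. These values are centred on the median of all genes tested, which then includes many genes with few counts. Among protein-coding genes only it was 0.0877 for ZNF557 to ZNF846, 0.0727 for ZNF653 to ZNF791, 0.0960 for ZNF302 to ZNF792, -0.12 for ZNF575 to ZNF296, 0.0970 for ZNF175 to ZNF331 and 0.00396 for ZNF628 to ZNF446. With at least 10 counts in every library it was 0.0884 for ZNF557 to ZNF846. With a gap of 0.5 Mb it was 0.0813 for ZNF414 to ZNF846, -0.12 for ZNF628 to ZNF835 and 0.00608 for ZNF264 to ZNF446. With single libraries left out, it ran from -0.38 to -0.19 for ZNF554 to ZNF77, -0.00228 to 0.0486 for ZNF557 to ZNF846, 0.0354 to 0.0888 for ZNF653 to ZNF791, -0.00750 to 0.19 for ZNF101 to ZNF254, -0.0553 to 0.0715 for ZNF302 to ZNF792, -0.0127 to 0.0945 for ZNF565 to ZNF573, -0.20 to -0.14 for ZNF575 to ZNF296, 0.00462 to 0.0619 for ZNF175 to ZNF331 and -0.0946 to -0.0296 for ZNF628 to ZNF446.

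The sign turned for ZNF44 without a filter (-0.000575) and for ZNF93 without a filter (-0.0188), with the length trend removed (-0.00727) and with block and length trend (-0.00832). With single libraries left out, values ran from -0.0736 to 0.11 for ZNF44, -0.15 to 0.14 for ZNF93, -0.0120 to 0.19 for ZNF100, -0.0774 to 0.14 for ZNF91 and -0.0634 to 0.15 for ZNF274. The cause was not tested in any of these.

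With 2 libraries a group, 0 calls do not show that transcription was alike. Counts of members under other genes of their strand, and of near-identical copies, are incomplete to an extent the table does not show.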
